A study of Mus musculus with 47 samples.

Results

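Hepatic gene expression in untreated male mice without the nuclear receptor PXR (Pxr-/-, 5 mice) was compared with that in untreated Pxr+/+ males (6 mice), on 1 microarray per mouse and over all gene probes. These are the samples whose labels give male sex, the control treatment and the genotype PxrKO or PxrWT, and they make up 11 of the 47 livers of the study, which has 8 groups by sex, genotype and treatment (control or antibiotics, ATB) and asks how PXR and the gut microbiota shape hepatic gene expression. All mice were adult C57BL/6J littermates born to Pxr+/- parents, the null allele is not tied to a Cre driver in the sources used here, and the control mice drank tap water without antibiotics. Males and females, and Pxr-/- and Pxr+/+ mice, were housed apart from the age of 5 weeks, 8 mice per group in 2 cages, so that genotype and cage cannot be told apart, and the livers were taken at ZT6, 6 h after the lights came on. ATB mice, used below for comparison, received ampicillin, neomycin and vancomycin in their drinking water for 2 weeks.

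PXR, encoded by Nr1i2, is a receptor of the liver and the gut that binds bile acids, steroids, drugs and products of gut bacteria. With its partner RXR it binds response elements near genes that take up, oxidise, conjugate and export these compounds. In the mouse, genes of the Cyp3a and Cyp2c families of cytochrome P450, conjugating enzymes and the uptake transporter Slco1a4 are among those known to respond to PXR ligands, and the related receptor CAR (Nr1i3) acts on many of the same genes.

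The values are log2 fluorescence of Agilent 60-base probes, so that a difference of 1 is a doubling of signal, and levels are compared within a probe only. Background was not subtracted, so that the size of a difference in a dim gene depends on the processing. The 75th percentile of the raw signal lay between 306 and 386 on the Pxr-/- arrays and between 309.5 and 388.5 on the Pxr+/+ arrays, with 31663 to 32671 and 31187 to 33669 gene probes well above background. After dim probes were left out, 32979 probes of 21877 genes were tested with limma, with the microarray wash batch as a covariate. A gene was called different if 1 or more of its probes passed an adjusted p of 0.05 and a 1.2-fold change, and the printed value is from its brightest probe. The number of arrays limits the precision. The p-values rest on a spread per probe that is shared by the mice of all 8 groups, not by the control males alone. In whole liver, fewer cells of a type and less RNA per cell cannot be told apart.

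The single tested probe of Nr1i2 gave 11.74, 11.36, 11.44, 11.07 and 11.24 in the 5 Pxr-/- males (replicates 2 to 6, the order used throughout) and 11.23 to 11.98 (median 11.68) in the 6 Pxr+/+ males. The groups overlapped and the probe did not pass the test (log2 difference -0.28, SE 0.18, adjusted p = 0.996). It lies on chromosome 16, from 38248745 to 38248804 of the mm9 build, and the sources used here do not give the deleted part of the gene, so that this probe may lie outside it and does not check the genotype. As to the tissue label, hepatocyte markers were present in both groups, with albumin (Alb) at a median of 18.65 in each, and 20 such genes had a median difference of -0.01, with 0 called and 0 at an unadjusted p below 0.05.

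In Pxr-/- males, 42 genes were called (0.192% of those tested). Of these, 35 were higher (0.16%) and 7 lower (0.032%) than in Pxr+/+ males, as shown mouse by mouse in the plot of called genes. The genes that fell were led by Slco1a4, a transporter that takes bile acids and drugs up into hepatocytes. Those that rose included 6 members of the Cyp2c family and 2 of the Cyp3a family, the enzymes Sult5a1, Papss2, Ces2a and Akr1b7 of phase I and II metabolism, and a set of genes of other functions led by Tmeff2, Meig1 and Adamtsl1. The change exceeded 2-fold for 16 genes that rose and 4 that fell. Values of Pxr-/- and Pxr+/+ mice did not overlap for 32 of the 35 higher genes and for 6 of the 7 lower genes, where over all genes 0.329% lay wholly above and 0.512% wholly below. With the values that the authors deposited after their own processing, limma called 48 genes higher and 21 lower, and the share of higher genes was then 69.6% in place of 83.3%. The median difference over all genes was -0.04, with 65.4% of genes below 0.

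**Figure D1:**
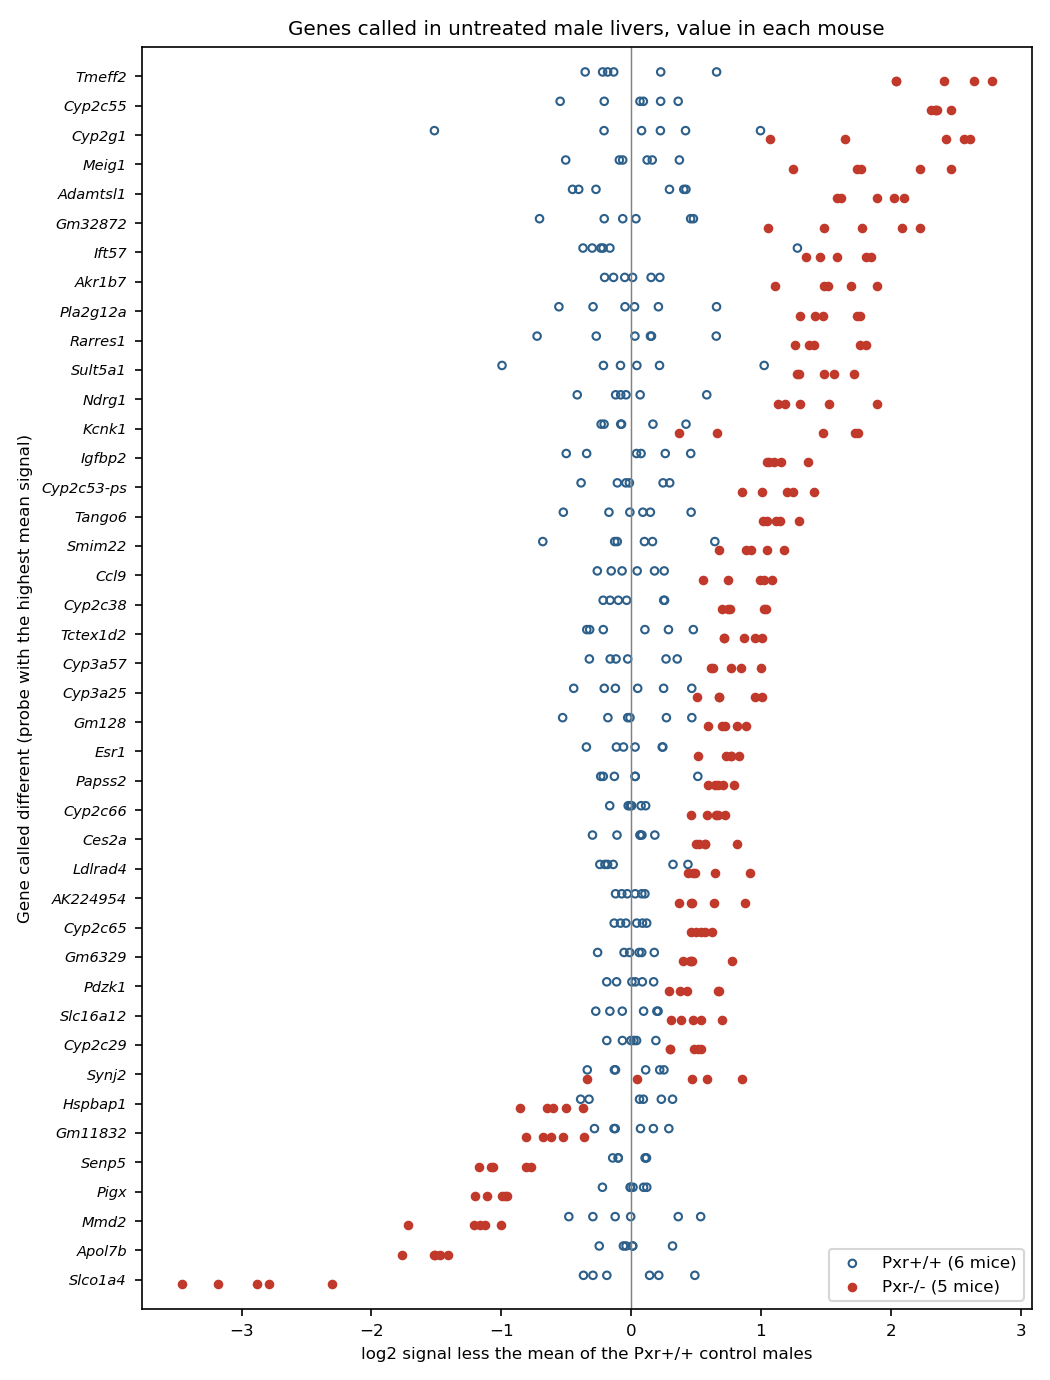
Log2 signal of each called gene in each mouse, less the mean of the 6 Pxr+/+ control males (x axis), with 1 gene per line sorted by its log2 difference (y axis, brightest probe). Filled points are the 5 Pxr-/- mice and open points the 6 Pxr+/+ mice. Slco1a4 lies farthest to the left, and the points of the groups overlap for Kcnk1, Ldlrad4, Synj2 and Hspbap1.

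Slco1a4 encodes Oatp1a4, an organic anion transporter of the basolateral membrane of hepatocytes. Its log2 signal was 7.80, 7.32, 6.92, 6.65 and 7.22 in Pxr-/- males and 9.74 to 10.60 (median 10.08) in Pxr+/+ males. The probe lies on chromosome 6, from 141754675 to 141754734 of the mm9 build. Each Pxr-/- male lay below each Pxr+/+ male by more than the whole range of either group. The level was 7.59-fold lower without PXR (log2 difference -2.92, SE 0.21, adjusted p = 1.28e-12). Slco1a4 was the 1 called gene among 13 tested uptake transporters, whose median difference was -0.04. Other transporters with a high signal did not pass the test. Slco1b2, the main hepatic transporter of the same family, had a difference of -0.01 (adjusted p = 0.998), and Slc10a1, the sodium-dependent bile acid transporter, one of -0.04 (adjusted p = 0.996). Of 18 tested ABC efflux transporters, which export drugs, conjugates and bile acids, 0 were called, 2 had an unadjusted p below 0.05 (5.2% of all genes did), and the median difference was -0.06. The bile salt export pump Abcb11 had a difference of -0.01 (adjusted p = 0.998).

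The Cyp2c enzymes oxidise drugs and polyunsaturated fatty acids such as arachidonic and linoleic acid, and their genes lie together on chromosome 19. Of 16 tested members, 6 were higher in Pxr-/- males and 0 were lower, while the other members had differences of -0.18 to 0.23. Of the 6, Cyp2c65 and Cyp2c66 met the filter on dim probes, among the groups compared here, only in the Pxr-/- control males. The family median was 0.07 (0.01 without Pxr-/- replicate 4 and 0.15 without Pxr-/- replicate 2). The sequence before the start site is shown for Slco1a4, the gene with the largest fall, and for 5 of the Cyp2c genes that rose, since these moved together and lie in 1 cluster. Each is the 250 bases upstream of the RefSeq start in the GRCm38.p6 build, 5′ to 3′ on the strand of the gene. Capitals mark the longest run that is shared within the pair Cyp2c65 and Cyp2c66 and within the pair Cyp2c29 and Cyp2c38.
Slco1a4 (chr6:141856221-141856470, minus strand): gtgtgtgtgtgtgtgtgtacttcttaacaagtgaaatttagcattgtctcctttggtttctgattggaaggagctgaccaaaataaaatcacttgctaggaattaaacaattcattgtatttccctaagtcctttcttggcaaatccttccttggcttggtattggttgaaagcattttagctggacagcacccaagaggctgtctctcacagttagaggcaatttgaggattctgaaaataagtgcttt
Cyp2c55 (chr19:39006769-39007018, plus strand): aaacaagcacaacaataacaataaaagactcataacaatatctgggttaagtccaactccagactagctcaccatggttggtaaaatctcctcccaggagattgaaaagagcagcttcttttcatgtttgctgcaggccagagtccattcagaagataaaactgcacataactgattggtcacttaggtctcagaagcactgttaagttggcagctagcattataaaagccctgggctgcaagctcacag
Cyp2c65 (chr19:39060756-39061005, plus strand): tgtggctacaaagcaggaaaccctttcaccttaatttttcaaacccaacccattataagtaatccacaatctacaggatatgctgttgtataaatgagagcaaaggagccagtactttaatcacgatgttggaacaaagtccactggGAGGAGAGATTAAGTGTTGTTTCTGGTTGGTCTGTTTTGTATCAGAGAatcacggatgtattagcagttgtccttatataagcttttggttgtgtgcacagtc
Cyp2c66 (chr19:39113648-39113897, plus strand): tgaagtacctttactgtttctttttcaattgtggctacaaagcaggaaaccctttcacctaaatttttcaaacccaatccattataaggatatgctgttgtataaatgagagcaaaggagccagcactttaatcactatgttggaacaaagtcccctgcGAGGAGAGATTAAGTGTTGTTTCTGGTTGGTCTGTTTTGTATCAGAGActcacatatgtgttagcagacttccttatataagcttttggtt
Cyp2c29 (chr19:39286835-39287084, plus strand): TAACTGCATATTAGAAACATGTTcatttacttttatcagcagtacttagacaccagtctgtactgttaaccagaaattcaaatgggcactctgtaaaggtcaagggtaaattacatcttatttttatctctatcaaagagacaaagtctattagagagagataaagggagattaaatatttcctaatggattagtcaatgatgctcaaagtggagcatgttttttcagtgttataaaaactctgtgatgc
Cyp2c38 (chr19:39463076-39463325, minus strand): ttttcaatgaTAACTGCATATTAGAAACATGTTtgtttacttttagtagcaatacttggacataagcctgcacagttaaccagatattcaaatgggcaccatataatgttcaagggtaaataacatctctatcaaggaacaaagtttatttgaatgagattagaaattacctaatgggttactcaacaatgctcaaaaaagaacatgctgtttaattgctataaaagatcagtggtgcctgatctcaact
The run shared by Cyp2c65 and Cyp2c66 is 48 bases long and ends 56 and 44 bases before their start sites, and 171 of 238 aligned bases of the pair were identical (71.8%). Cyp2c29 and Cyp2c38 share 23 bases and 55.4% of 240 aligned bases. Every other pair of the 6 genes shared 30.6% to 35.2%, and Cyp2c55, the member with the largest rise, had no close match among them. The elements AGGTCA and AGTTCA, which nuclear receptors of this class bind as repeats, were searched on both strands. A match of one can overlap a match of the other by its end base. Over both, 1 match was found in the 6 genes, an AGGTCA 154 bases before the start of Cyp2c29. In all 32851 promoters of the same table and length, AGGTCA occurred in 14%, AGTTCA in 11.8% and either in 24.2%.

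Cyp2c55 was 10.47, 10.44, 10.59, 10.47 and 10.48 in Pxr-/- males and 7.58 to 8.49 (median 8.21) in Pxr+/+ males. The Pxr-/- males lay within a narrow band that was well above every Pxr+/+ male. The gene was 5.14-fold higher (log2 difference 2.36, SE 0.26, adjusted p = 9.23e-08), and both of its probes were called. The brighter one lies on chromosome 19, from 39116674 to 39116733 of mm9. Cyp2c38 gave 15.66, 15.38, 15.36, 15.32 and 15.65 against 14.41 to 14.88 (median 14.55), a difference of 0.85 (SE 0.14, adjusted p = 0.000519). Cyp2c29 has a high signal in both groups, with 16.42, 16.20, 16.39, 16.21 and 16.44 in Pxr-/- and 15.72 to 16.10 (median 15.92) in Pxr+/+ males. Both genes had no overlap between the groups. The difference of Cyp2c29 was the smallest of the 6 (0.43, SE 0.10, adjusted p = 0.0398), and its call was lost when any of 8 of the 11 mice was left out (adjusted p up to 0.173), the exceptions being Pxr-/- replicates 3 and 5 and Pxr+/+ replicate 2.

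The other 3 Cyp2c members were a pseudogene and a pair of genes close to background. The pseudogene Cyp2c53-ps gave 7.37, 7.42, 7.03, 7.58 and 7.18 in Pxr-/- and 5.79 to 6.47 (median 6.14) in Pxr+/+ males (log2 difference 1.14, SE 0.17, adjusted p = 0.000107). Cyp2c65 and Cyp2c66, whose upstream sequences are alike, were not well above background in any of the 6 Pxr+/+ males. They were above it in all 5 Pxr-/- males. Among the groups compared here, only the Pxr-/- control males reached the 5 arrays above background that a probe needed to be tested. Presence in all 5 is thus no separate support for these 2 genes. Cyp2c65 was at 5.12, 5.08, 5.04, 5.15 and 5.21 in Pxr-/- males, at least 1.38-fold above the background limit that bounds the Pxr+/+ males (adjusted p = 7.37e-05). Cyp2c66 was at 5.08, 5.16, 5.15, 4.96 and 5.22, at least 1.4-fold higher (adjusted p = 0.000135). For these bounds, each Pxr+/+ array counts at the higher of its own value and the lowest signal among probes well above background. The bounds apply to the reported processing only. Over the other ways of processing, the log2 difference ran from 0.28 to 1.84 for Cyp2c65 and from 0.29 to 2.32 for Cyp2c66. The Cyp2c probes of the called genes share at most 26 of 60 bases with that of another member. Probes lie at different places of their transcripts, so that this does not show whether a probe also binds the transcript of another member.

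The Cyp3a enzymes oxidise steroids, bile acids and many drugs, and Cyp3a11 is the member most used as a readout of PXR in mouse liver. Of 8 tested members, 7 were above 0 and 2 were called higher, 0 lower, and the median difference was 0.53. Cyp3a57 gave 14.32, 13.95, 14.16, 13.94 and 14.09 in Pxr-/- and 13 to 13.67 (median 13.25) in Pxr+/+ males (log2 difference 0.77, SE 0.16, adjusted p = 0.0128). Cyp3a25 gave 14.96, 14.68, 15.01, 14.51 and 14.68, against 13.56 to 14.47 (median 13.97) in Pxr+/+ males (log2 difference 0.77, SE 0.17, adjusted p = 0.0302). Neither gene had an overlap between the groups. Their probes share 49 of 60 bases, so that the signals of this pair may not be separate. The call of Cyp3a57 was lost without Pxr-/- replicate 2 or 4 or Pxr+/+ replicate 1 or 4 (adjusted p up to 0.0895). That of Cyp3a25 was lost without any of 8 mice, all but Pxr-/- replicate 5 and Pxr+/+ replicates 2 and 5 (adjusted p up to 0.158).

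Cyp3a11 itself gave 14.88, 14.43, 14.97, 14.73 and 14.52 in Pxr-/- and 13.89 to 14.42 (median 14.15) in Pxr+/+ males. Every Pxr-/- male lay above every Pxr+/+ male, yet the gene did not pass the test over all probes (log2 difference 0.56, SE 0.18, 95% interval 0.19 to 0.93, adjusted p = 0.59). Cyp3a16, Cyp3a59 and Cyp3a41a also had no overlap and no call, with differences of 0.62 (adjusted p = 0.34), 0.50 (0.395) and 0.40 (0.727). Under quantile normalization of all arrays, 3 Cyp3a members were called higher. Without Pxr-/- replicate 2 or 4, or without Pxr+/+ replicate 1 or 4, 0 members were called. The plot of the Cyp2c and Cyp3a families sets all members side by side.

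**Figure D2:**
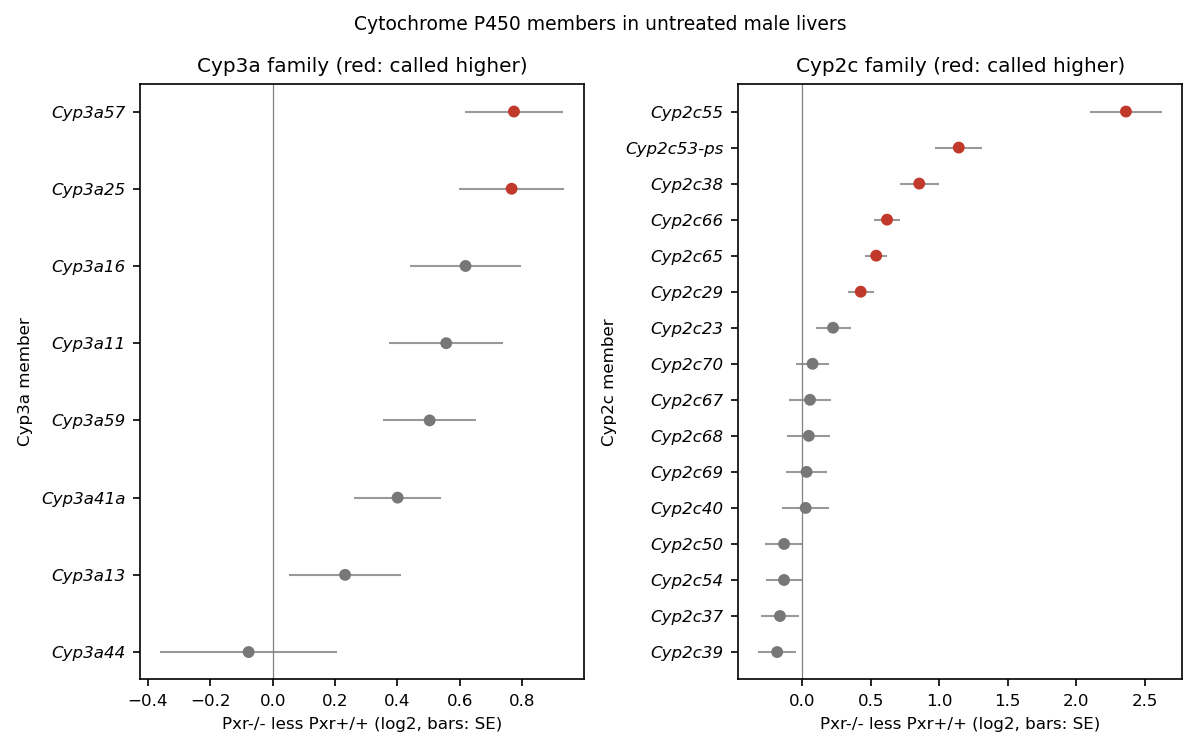
Log2 difference between Pxr-/- and Pxr+/+ control males (x axis, points, with bars of 1 SE) for the 8 tested Cyp3a members (left) and the 16 tested Cyp2c members (right). Red points are called higher: Cyp3a57 and Cyp3a25 on the left, and 6 members from Cyp2c29 to Cyp2c55 on the right, with the other Cyp2c members near 0.

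Among other cytochrome P450 genes, 1 was called. Of 7 tested Cyp2a and Cyp2b genes 0 were called and 5 had an unadjusted p below 0.05. Their differences went both ways, 4 above and 3 below 0, from -0.86 to 0.69, with a median of 0.21 (0.12 without Pxr-/- replicate 4). Cyp2b10, the usual marker of CAR activity, differed by -0.62 with an adjusted p = 0.996. Of 23 members of families 1, 2 and 26 outside these groups, the called gene was Cyp2g1, a steroid-metabolising enzyme best known from the olfactory mucosa. Cyp2g1 gave 9.08, 7.54, 8.89, 8.11 and 9.03 in Pxr-/- males and 4.95 to 7.46 (median 6.62) in Pxr+/+ males. The groups did not overlap, but both were spread widely. The log2 difference was 2.07 (SE 0.38, adjusted p = 0.00316). Cyp2e1, which oxidises ethanol, had a difference of 0.01 (adjusted p = 0.998).

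Among conjugating enzymes, 2 genes of sulfation rose. Papss2 makes the sulfate donor PAPS, and gave 14.59, 14.50, 14.46, 14.44 and 14.39 in Pxr-/- and 13.56 to 14.31 (median 13.75) in Pxr+/+ males, with no overlap (log2 difference 0.68, SE 0.14, adjusted p = 0.00933, with 1 of 2 probes called). Its call was lost without Pxr-/- replicate 2 or without Pxr+/+ replicate 4 (adjusted p up to 0.0536). Sult5a1, a cytosolic sulfotransferase, gave 9.30, 9.10, 9.38, 9.09 and 9.53, against 6.82 to 8.84 (median 7.79) in Pxr+/+ males (log2 difference 1.47, SE 0.25, adjusted p = 0.000929, with 1 of 2 probes called). All Pxr-/- males lay above the highest Pxr+/+ male. These were the 2 called genes among 17 of the sulfotransferase list, whose median was -0.16 (-0.06 without Pxr+/+ replicate 2). Of 21 glutathione S-transferases 0 were called and 5 had an unadjusted p below 0.05 (median -0.04), and of 16 UDP-glucuronosyltransferases 0 were called and 8 had one (median 0.15). Ugt1a10, named after its values were seen, had the largest difference of any gene of these lists, 2.83 (SE 0.75), but with a mean of 9.53 ± 1.31 (SD, n = 5) in Pxr-/- and 6.70 ± 0.29 (SD, n = 6) in Pxr+/+ males it did not pass the test (limma, adjusted p = 0.198). Under quantile normalization, 1 UDP-glucuronosyltransferase was called higher.

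Of 42 carboxylesterases, dehydrogenases and reductases, 2 were higher and 0 lower, and the median was 0.00. Ces2a hydrolyses ester drugs and acylglycerols, and gave 13.18, 12.94, 12.94, 12.86 and 12.89 in Pxr-/- and 12.07 to 12.55 (median 12.44) in Pxr+/+ males (log2 difference 0.59, SE 0.11, adjusted p = 0.00215). Akr1b7 reduces aldehydes from lipid peroxidation and bile acid intermediates. It gave 6.46, 6.86, 6.08, 6.48 and 6.66, against 4.76 to 5.19 (median 4.95) in Pxr+/+ males, a 2.91-fold rise (log2 difference 1.54, SE 0.25, adjusted p = 0.000449), with 5 of 6 Pxr+/+ males above background. Over the other ways of processing, the difference of Akr1b7 ran from 0.94 to 2.52. Both genes separated the groups without overlap.

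Pla2g12a, a secreted phospholipase A2, gave 10.66, 10.23, 10.69, 10.34 and 10.40 in Pxr-/- and 8.37 to 9.58 (median 8.92) in Pxr+/+ males (log2 difference 1.54, SE 0.20, adjusted p = 7.08e-06). Apol7b, of the apolipoprotein L family, went the other way, with 7.19, 7.24, 7.19, 7.30 and 6.94 in Pxr-/- and 8.46 to 9.03 (median 8.69) in Pxr+/+ males. Neither gene had an overlap, and Apol7b was 2.9-fold lower (log2 difference -1.54, SE 0.15, adjusted p = 1.89e-09). Pdzk1, a scaffold that holds the HDL receptor SR-B1 at the membrane, was higher by 0.49 (adjusted p = 0.024), a call that was lost without Pxr-/- replicate 2 or 4 or Pxr+/+ replicate 1, 3 or 4 (adjusted p up to 0.147). Ldlrad4, an inhibitor of TGF-beta signalling with an LDL receptor class A domain, differed by 0.59 with overlapping groups (adjusted p = 0.034), and its call was lost without any of 8 mice, all but Pxr-/- replicate 6 and Pxr+/+ replicates 1 and 3 (adjusted p up to 0.219).

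In the lists of lipid metabolism, limma called 0 genes. Of 33 genes of lipogenesis and triglyceride synthesis, 3 had an unadjusted p below 0.05 (median -0.08), with Fasn, the fatty acid synthase, at -0.18 and Scd1, the stearoyl-CoA desaturase, at -0.24 (adjusted p = 0.996 and 0.996). The count was 1 of 24 genes of sterol synthesis and uptake (median -0.03) and 1 of 19 genes of bile acid synthesis and conjugation (median -0.11). Without Pxr+/+ replicate 5 the lipogenesis and sterol medians were 0.02 and 0.06, and without Pxr+/+ replicate 3 they were -0.15 and -0.17. Of 40 PPARA targets and genes of fatty acid oxidation, 8 had an unadjusted p below 0.05. A difference below 0 was found for 36 of them (65.4% of all genes), with a median of -0.19. Under quantile normalization, 1 gene of this list was called lower. The PPARA targets Cyp4a14 and Fgf21, named after their values were seen, had the largest negative differences of that list, -1.56 (SE 0.53, adjusted p = 0.68) and -1.19 (SE 0.40, adjusted p = 0.665), with a mean of 6.24 ± 0.71 in Pxr-/- and 7.79 ± 1.66 in Pxr+/+ males for Cyp4a14 (SD, n = 5 and 6).

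Igfbp2, a secreted binding protein of insulin-like growth factors, gave 15.21, 14.91, 15.01, 14.90 and 14.95 in Pxr-/- and 13.35 to 14.31 (median 13.91) in Pxr+/+ males (log2 difference 1.15, SE 0.18, adjusted p = 0.000214). Esr1, the estrogen receptor alpha, gave 9.55, 9.81, 9.87, 9.77 and 9.81, against 8.69 to 9.28 (median 9.02) in Pxr+/+ males (log2 difference 0.72, SE 0.15, adjusted p = 0.0236). Neither gene had an overlap between the groups, but 2 of 7 Esr1 probes were called, and the call was lost without any of 8 mice, all but Pxr-/- replicate 2 and Pxr+/+ replicates 5 and 6 (adjusted p up to 0.111). Ndrg1, which responds to hypoxia and stress, was at 12.14 to 12.90 (median 12.30) in Pxr-/- and 10.59 to 11.59 (median 10.95) in Pxr+/+ males (log2 difference 1.41, SE 0.22, adjusted p = 0.000213). Rarres1, first described as a gene induced by retinoids, was at 12.70 to 13.24 (median 12.84), against 10.71 to 12.09 (median 11.52) in Pxr+/+ males (log2 difference 1.52, SE 0.23, adjusted p = 0.000107). The groups did not overlap for either gene.

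The largest rise of a called gene was that of Tmeff2, a transmembrane protein with follistatin-like and EGF-like domains. It gave 7.11, 7.35, 6.74, 7.48 and 6.75 in Pxr-/- and 4.35 to 5.36 (median 4.55) in Pxr+/+ males (log2 difference 2.38, SE 0.22, adjusted p = 1.8e-09), with 2 of 6 Pxr+/+ males above background. Adamtsl1, a secreted protein of the extracellular matrix, gave 8.21, 8.34, 8.42, 7.90 and 7.94, against 5.87 to 6.74 (median 6.33) in Pxr+/+ males (log2 difference 1.84, SE 0.18, adjusted p = 3.39e-09, with 3 of 3 probes called). Meig1, known for its part in sperm formation, gave 6.68, 7.18, 7.90, 7.21 and 7.67, against 4.94 to 5.81 (median 5.47) in Pxr+/+ males (log2 difference 1.89, SE 0.18, adjusted p = 3.39e-09). The groups stood apart in all 3 genes. Kcnk1, a potassium channel, was at 5.10 to 6.47 (median 6.21) in Pxr-/- and 4.50 to 5.15 (median 4.65) in Pxr+/+ males, with overlap and with 1 of 6 Pxr+/+ males above background (log2 difference 1.2, adjusted p = 0.00127). Mmd2, a membrane protein of the progestin and adipoQ receptor family, was lower, with 5.91, 5.75, 5.78, 5.19 and 5.70 in Pxr-/- and 6.43 to 7.44 (median 6.84) in Pxr+/+ males (log2 difference -1.24, SE 0.22, adjusted p = 0.00177).

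The other called genes changed by 0.48 or more in their brightest probe, Synj2 excepted. Tango6, which acts in transport through the Golgi, was higher by 1.12 (adjusted p = 0.0027), while its other probe gave 0.01. Ccl9, a chemokine of myeloid cells, was higher by 0.88 (adjusted p = 0.000519) and Slc16a12, a transporter of the monocarboxylate family, by 0.48 (adjusted p = 0.0381). Synj2, an inositol phosphatase, had 2 of 6 probes called higher and its brightest probe not (0.32, adjusted p = 0.996). The poorly described genes Gm32872, Gm128, AK224954 and Gm6329 were higher by 1.73, 0.74, 0.56 and 0.51, and Gm11832 was lower (-0.60), with adjusted p = 0.00138, 0.0291, 0.0161, 0.0434 and 0.0067. The call of Gm6329 was lost without any mouse but Pxr+/+ replicate 6 (adjusted p up to 0.24). Those of Gm128 and Slc16a12 were lost without any of 8 and 7 mice (adjusted p up to 0.142 and 0.21), and held for Gm128 without Pxr-/- replicate 3 or Pxr+/+ replicate 2 or 6, and for Slc16a12 without Pxr-/- replicate 6 or Pxr+/+ replicate 2, 5 or 6. That of AK224954 was lost without Pxr-/- replicate 3 or 5 or Pxr+/+ replicate 1 or 4 (adjusted p up to 0.149), and that of Gm11832 without Pxr-/- replicate 2 (adjusted p = 0.0631).

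The genes around Nr1i2 itself were described apart, because mice selected for a null allele can also carry DNA of the founder strain on either side of it. Within 20 Mb of the Nr1i2 probe on chromosome 16, 5 of 335 tested genes were called (1.49%). On other chromosomes or without a known position, 36 of 21175 were called (0.17%). In the window 3.88% of genes had no overlap between the groups, against 0.789% of those other genes. On the rest of chromosome 16, 1 of 367 genes was called, Smim22, which encodes a small membrane protein (log2 difference 0.94, adjusted p = 0.0118, lost without Pxr-/- replicate 2 or Pxr+/+ replicate 6, with an adjusted p of up to 0.0856). The share of these changes that belongs to flanking DNA was not tested, and the genotype of the flanking DNA is not given in the sources used here.

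Of the 5 genes, 3 were lower in Pxr-/- males. Pigx, a subunit of the enzyme that adds mannose to GPI anchors, lies -6.16 Mb from Nr1i2 (a negative sign means a lower coordinate) and gave 9.36, 9.21, 9.34, 9.11 and 9.32 in Pxr-/- and 10.09 to 10.43 (median 10.32) in Pxr+/+ males (log2 difference -1.05, SE 0.13, adjusted p = 1.38e-06). Senp5, a protease that removes SUMO, lies at -6.27 Mb and gave 6.30, 6.61, 6.32, 6.21 and 6.57, against 7.24 to 7.50 (median 7.38) in Pxr+/+ males (log2 difference -0.98, SE 0.12, adjusted p = 1.4e-06). Both genes had a wide gap between the groups. Hspbap1, at -2.42 Mb, overlapped between the groups (log2 difference -0.60, adjusted p = 0.0105, with 1 of 2 probes called), and its call was lost without Pxr-/- replicate 2 or 6 or Pxr+/+ replicate 1 or 5 (adjusted p up to 0.087). Tctex1d2, a dynein light chain at -5.82 Mb, was higher, with 8.88, 9.12, 9.17, 8.88 and 9.04 in Pxr-/- and 7.82 to 8.64 (median 8.11) in Pxr+/+ males (log2 difference 0.85, SE 0.15, adjusted p = 0.000829). Ift57, a part of the transport machinery of cilia at 11.52 Mb, gave 7.99, 7.73, 7.60, 7.49 and 7.95, against 5.77 to 7.42 (median 5.92) in Pxr+/+ males (log2 difference 1.61, SE 0.27, adjusted p = 0.000619). For Ift57 the Pxr+/+ replicate 1 stood at 7.42, close to the Pxr-/- males, while the other Pxr+/+ males were at 5.98 or below. Another 9 genes of the window had no overlap and no call, all of them lower in Pxr-/- males. Among them, and named after their values were seen, were the phospholipase gene Pla1a at 0.15 Mb (log2 difference -0.58, adjusted p = 0.0893) and the ketone body enzyme gene Bdh1 at -6.79 Mb (-0.46, adjusted p = 0.0893).

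**Figure D3:**
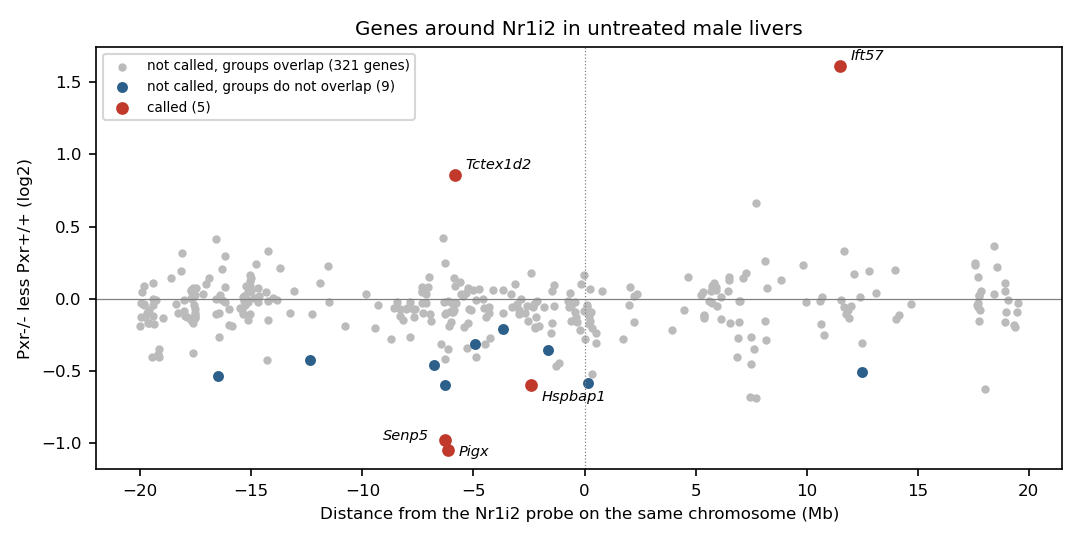
Log2 difference between Pxr-/- and Pxr+/+ control males (y axis) of the 335 tested genes within 20 Mb of the Nr1i2 probe, against their distance from it on chromosome 16 in Mb (x axis). Red points are the 5 called genes, blue points the 9 uncalled genes whose groups did not overlap, which all lie below 0, and grey points the other 321 genes.

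The same contrast was set beside that in control females and in ATB males, which share no mouse with the control males. The medians over all genes were -0.12 in control females and -0.13 in ATB males, and moved to values near 0 under quantile normalization, so that small differences there depend on the scaling. In control females, 29 of the 35 higher genes had a difference above 0 (19.4% of all genes did) and 16 were called higher (0.238% of all genes). All 7 lower genes were below 0 (80.6% of all genes) and 3 were called lower (3.9%). In ATB males, 34 of the 35 were above 0 (18.7%) and 29 were called higher (0.343%), and 7 of 7 were below 0 (81.3%) with 5 called lower (0.905%). In both comparisons 0 of the 42 genes were called in the opposite direction. The median difference of the 35 genes was 0.88 in control males, 0.48 in control females and 0.96 in ATB males. That of the 7 lower genes was -1.05, -0.70 and -0.92. Both sets were chosen by the values of the control males, which biases their medians in that comparison away from 0.

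Cyp2c55 rose in all 3 comparisons, by 2.36, 2.43 and 3.37 in control males, control females and ATB males. So did Akr1b7 (1.54, 2.05 and 1.68), Pla2g12a (1.54, 1.83 and 1.77), Rarres1 (1.52, 1.69 and 1.49) and Ces2a (0.59, 0.77 and 0.85), with limma's adjusted p at 7.6e-06 or less in females and 3.22e-05 or less in ATB males. Apol7b, Pigx and Senp5 fell in all 3, with differences of -1.54, -1.41 and -1.19 for Apol7b, -1.05, -1.13 and -0.94 for Pigx, and -0.98, -0.82 and -0.92 for Senp5. Esr1 had a difference of -0.19 in control females (adjusted p = 0.453) and of 0.41 in ATB males (adjusted p = 0.121), and the difference between the male and the female effect did not pass the test (adjusted p = 0.337).

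The difference between the effect in control males and that in control females was called for 5 genes, 0.0229% of those tested, all of them among the 42 genes. Of the 42, 18 had an unadjusted p below 0.05 for this difference, against 4.52% of all genes. The 42 were chosen for their effect in control males, which is also a part of this difference. An excess among them is thus partly built in. Slco1a4 in control females spanned 10.12 to 11.33 in Pxr-/- and 11.18 to 11.91 in Pxr+/+, so that its male effect of -2.92 stood against -0.50 in females, where the groups overlapped (difference between effects -2.42, SE 0.30, adjusted p = 9.55e-06). Cyp2c53-ps differed by -0.15 in females (difference between effects 1.29, SE 0.24, adjusted p = 0.0162). For the other 3 genes the fitted difference between effects is no exact size, because groups were below background. It was 1.72 for Tmeff2 (adjusted p = 0.0115), which was well above background in 0 of 6 control Pxr+/+ and 4 of 6 control Pxr-/- females. The mean of the Pxr-/- females was 1.37-fold above the background limit, but the female groups overlapped and Tmeff2 was not called there (limma, adjusted p = 0.0675). The fitted difference between effects was 1.74 for Meig1 (adjusted p = 0.000399) and 0.67 for Cyp2c65 (adjusted p = 0.00328). Neither of these was well above background in any control female, and Cyp2c65 was not so in any Pxr+/+ control male. Among the groups compared here, Cyp2c65 met the filter on dim probes only in the Pxr-/- control males, whose values also enter this difference. The number called was 3 without Pxr-/- replicate 3 or without Pxr-/- replicate 5.

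Between control males and ATB males, the difference was called for 4 genes (0.0183%), and 0 of these were among the 42, of which 7 had an unadjusted p below 0.05 (5.06% of all genes did). The choice of the 42 by their effect in control males bears on this share too. All 4 genes called for this difference were Cyp3a members whose effect was larger in ATB males. Whether their probes also bind transcripts of other members was not tested. Cyp3a11 in ATB males spanned 13.85 to 15.09 in Pxr-/- and 11.88 to 12.55 in Pxr+/+, an effect of 2.40 against 0.56 in control males (difference -1.84, SE 0.25, adjusted p = 8.8e-05). The effect in ATB males was 2.35 for Cyp3a16 (difference -1.73, adjusted p = 0.000132), 1.95 for Cyp3a41a (-1.55, 1.53e-05) and 1.70 for Cyp3a59 (-1.2, 0.0066). Control means of Cyp3a11, Cyp3a16, Cyp3a41a and Cyp3a59 were 14.15, 13.51, 16.81 and 13.68 in Pxr+/+ and 14.71, 14.13, 17.21 and 14.18 in Pxr-/- males. The ATB means were 12.11, 11.61, 15.08 and 12.50 in Pxr+/+ and 14.51, 13.96, 17.03 and 14.20 in Pxr-/- males. The called Cyp3a25 and Cyp3a57 had effects of 1.03 and 1.08 in ATB males, and their differences from control males did not pass the test (adjusted p = 0.86 and 0.842). The number called was 4 in each of the 11 fits that left out 1 control male and under each other way of processing tried.

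**Figure D4:**
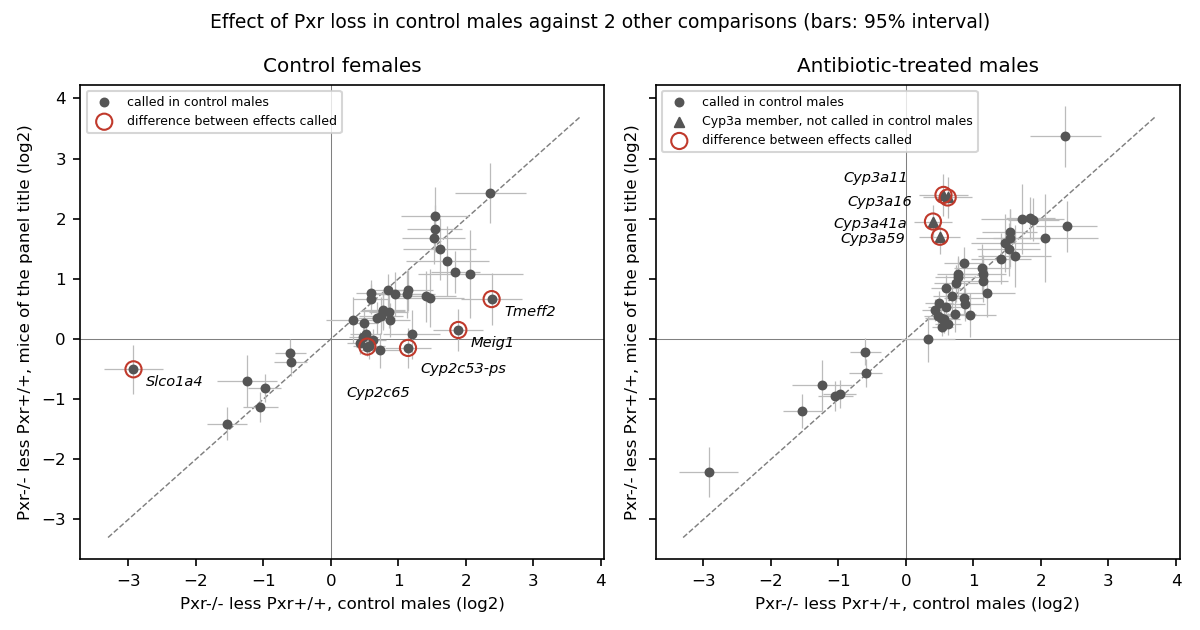
Log2 difference between Pxr-/- and Pxr+/+ mice in control females (left) and ATB males (right) on the y axis, against that in control males on the x axis, with 95% intervals as bars and a dashed line of equality. Circles are the 42 genes called in control males and triangles 4 Cyp3a genes not called there. Red rings mark the genes whose difference between effects was called: Slco1a4, Meig1, Tmeff2, Cyp2c53-ps and Cyp2c65 on the left, and Cyp3a11, Cyp3a16, Cyp3a41a and Cyp3a59 on the right. The female values of Meig1, Tmeff2 and Cyp2c65 include groups that were not well above background.

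Markers of other liver cells were examined as lists, without a test of the list. Of 29 tested markers of Kupffer cells and other macrophages, 0 were called and 9 had an unadjusted p below 0.05. Of these 29, 27 were below 0, with a median of -0.38 against -0.04 over all genes. Over all genes 65.4% were below 0, which bears on the counts of each list here. The mean level of this list was 8.70 to 9.41 (median 8.99) in Pxr-/- and 9.25 to 9.66 (median 9.48) in Pxr+/+ males, with overlap, and all 29 genes were above background on all 11 arrays. The difference was -0.57 for Cd5l, a secreted protein of tissue macrophages, -0.58 for Lyz2, the macrophage lysozyme, and -0.44 for Csf1r, the receptor for the macrophage growth factor (adjusted p = 0.996, 0.996 and 0.996). The median of the macrophage list was -0.80 in control females, with 16 genes called lower, and 0.17 in ATB males, with 0 called, and the differences between these were not tested for the list. Sinusoidal endothelial markers had a median of -0.21, with 19 of 20 below 0, cholangiocyte markers -0.17, with 12 of 12 below 0, and T and NK cell markers -0.17, with 19 of 22 below 0. In these lists limma called 0 genes, with an unadjusted p below 0.05 for 5, 1 and 0 of them, and their part in the called genes was not tested. Of the receptors, Rxra, the partner of PXR, had a difference of -0.02, and Nr1i3, which encodes CAR and was named after its values were seen, one of -0.40 (adjusted p = 0.766). None of 18 genes in the list of PXR, CAR and their partners was called, and 1 had an unadjusted p below 0.05.

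Other lists held 0 called genes, with an unadjusted p below 0.05 for 0 or 1 gene of each. Their medians were -0.05 for gluconeogenesis (20 genes), -0.07 for heat shock and ER chaperones (28 genes), -0.03 for NRF2 targets and glutathione synthesis (20 genes), -0.03 for the electron supply and heme synthesis of P450 (17 genes), 0.05 for the growth hormone axis and sex-biased genes (29 genes), 0.05 for acute phase proteins (29 genes), 0.03 for interferon-stimulated genes (40 genes) and 0.13 for the circadian clock (19 genes). Stellate cell, B cell, neutrophil and blood cell markers had medians of -0.10, -0.15, -0.17 and -0.28. Leaving out 1 mouse moved the median of a list by up to 0.24 and turned the sign of several, so that no direction is read from medians of this size. Without Pxr-/- replicate 2 the medians were -0.06 for acute phase proteins, -0.03 for interferon-stimulated genes and 0.00 for the clock, and without Pxr-/- replicate 6 the chaperones were at 0.16. The cholangiocyte median ran from -0.32 without Pxr-/- replicate 3 to -0.10 without Pxr+/+ replicate 1, where 10 of 12 genes were below 0, and the endothelial median from -0.30 without Pxr-/- replicate 4 to -0.14 without Pxr-/- replicate 6. That of the macrophage list ran from -0.50 without Pxr-/- replicate 5 to -0.30 without Pxr-/- replicate 6.

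**Figure D5:**
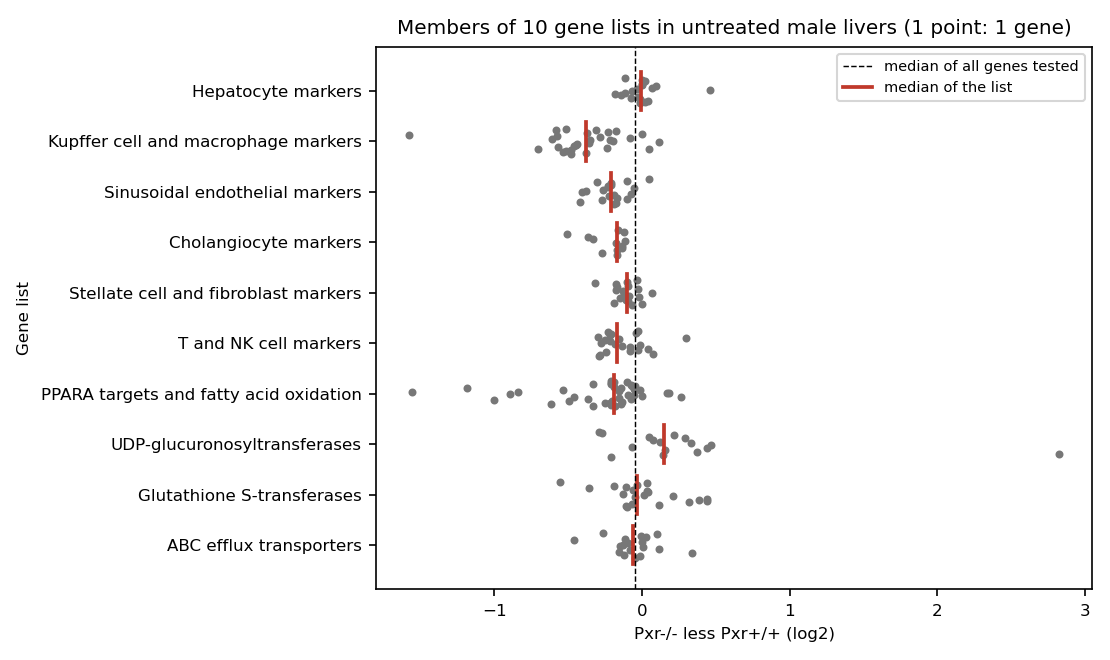
Log2 difference between Pxr-/- and Pxr+/+ control males (x axis) for the members of 10 gene lists (y axis), with 1 point per gene and a red line at the median of each list. The dashed line is the median of all genes tested, -0.04. The macrophage list lies farthest to the left, at -0.38, and the point far to the right is Ugt1a10.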

How the data were processed

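Total RNA of 47 mouse livers was labelled with Cy3 and hybridised to Agilent 60-base arrays, 1 mouse per array, on 6 slides and in 3 wash batches. Per the labels, the submitters' processing notes name Agilent Feature Extraction 10.10.1.1 and limma. The authors deposited scanner files with fluorescence intensity per spot, and a table of processed log2 values (33383 probes). According to the methods, median signals were filtered, log2 transformed, corrected for the wash bath, normalized with CrossNorm and fitted with limma. The filter and the stacking used for CrossNorm are not given in the sources used here and were chosen here.

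From the deposited intensity, log2 median signals were averaged over the spots of a probe, and control spots and 422 non-uniform spot values were left out. A probe was kept if it was well above background on 5 or more arrays of any 1 group (32979 of 56605). The wash batch was removed with group means kept, and values were averaged over 300 random stacks of 1 array per group, each quantile-normalized (seed 1), which leaves shifts between groups in place. One limma 3.58.1 model (R 4.3.3) held the 8 groups and the wash batch, with Benjamini-Hochberg adjustment over all probes. Differences between effects were contrasts of the same model. Calls needed an FDR up to 0.05 and more than a 1.2-fold change. The script was tested on simulated data. Gene symbols were updated through RefSeq accessions (1535 of 32994 matched probes), and upstream sequences were matched for 35 of 42 called genes. The text names Nr1i2, every called gene, genes called in a difference between effects, and list members that were called or had the highest levels, and a few others said to be named after their values were seen. Members and lists were chosen with earlier results of these data known. Labels were checked on sex-linked genes: Xist, Ddx3y, Eif2s3y and Uty separated the sexes, and Kdm5d overlapped. The other mice of each group, and the cage of each mouse, were not analysed here.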

Additional observations from a re-analysis of the deposited data

Results flagged for a closer look

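In 7 of 94 groups of values (47 genes in the Pxr-/- and in the Pxr+/+ control males), 1 mouse stood apart from the others of its group by a gap large against the range. Chance gives this in about 1 in 20 groups. In Pxr-/- males these were replicate 2 for Ces2a (13.18, with the next at 12.94), replicate 4 for Cyp2c55 (10.59, next 10.48), replicate 4 for Gm6329 (5.56, next 5.24) and replicate 5 for Mmd2 (5.19, next 5.70). In Pxr+/+ males these were replicate 1 for Ift57 (7.42, next 5.98), replicate 5 for Papss2 (14.31, next 13.83) and replicate 3 for Pigx (10.09, next 10.31). None of these mice stood apart for more than 1 gene, except Pxr-/- replicate 4, which did so for Cyp2c55 and Gm6329.

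The effect of Pxr loss differed between control males and control females, by limma's test of the difference, for Slco1a4 (male less female effect -2.42), Meig1 (1.74), Tmeff2 (1.72), Cyp2c53-ps (1.29) and Cyp2c65 (0.67). The values of Meig1, Tmeff2 and Cyp2c65 are no exact sizes, since Meig1 and Cyp2c65 were not well above background in any control female, Tmeff2 in any Pxr+/+ control female and Cyp2c65 in any Pxr+/+ control male. It differed between control males and ATB males for Cyp3a11 (control less ATB effect -1.84), Cyp3a16 (-1.73), Cyp3a41a (-1.55) and Cyp3a59 (-1.2).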

How the results depend on the processing

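No called gene changed direction under any alternative. The number of higher genes, 35 as reported, was 56 with quantile normalization, and 25 to 37 with 1 array left out. The number of lower genes, 7 as reported, was 21 with the deposited processed values, 17 with quantile normalization, 17 with normexp background correction and quantile normalization, 15 with the processed signal less the 75th percentile, and 6 to 12 with 1 array left out (12 without Pxr+/+ replicate 6). All 35 and all 7 remained called with quantile normalization and with the deposited values. When only the groups compared were fitted, 25 were higher and 7 lower, and 20 and 5 of the reported genes remained. The difference between the effects in control males and control females, called for 5 genes, was called for 3 with the processed signal less the 75th percentile, for 2 when a probe had to be well above background on every one of the 47 arrays, which leaves fewer genes tested, and for 3 to 5 with 1 array left out. The difference from ATB males was called for 4 genes under every alternative. Of 41 called genes, compared at their brightest probe (Synj2, whose brightest probe was not called, was left out), 25 kept their call under each of the 11 other alternatives that gave a value and 27 with any 1 array left out. Within wash batches 1, 2 and 3, 42, 42 and 41 of the 42 genes kept their direction (Synj2 was the exception). With the replicate number as a block, 31 genes were higher and 8 lower, and the differences between effects were called for 5 and 4. Samples with the same number were treated as unpaired. The correlation of their deviations was -0.34 to 0.04, which cannot show whether the mice were matched in another way. Arrays with the same number shared a slide, except for replicate 3. The median over all genes went from -0.12 to 0.00 in control females and from -0.13 to -0.01 in ATB males under quantile normalization. That step gives all arrays the same distribution, so that medians near 0 largely follow from it. The cause of the shifts present without it was not tested. Signal over background limits Cyp2c65, Cyp2c66, Tmeff2, Kcnk1 and Gm6329, which were above background in 0 to 2 of 6 Pxr+/+ males. With all arrays kept, their sizes moved with the processing, from 1.51 to 4.35 for Tmeff2, 0.74 to 2.91 for Kcnk1 and 0.29 to 2.32 for Cyp2c66.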
